A study of Mus musculus with 7 samples.

Results

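The 10 genes described here encode proteins of the BCL2 family and were taken by gene identifier from the 27179 genes counted in each library. They are Bcl2, Bcl2l1, Bcl2l2 and Mcl1 (survival), Bax and Bak1 (pore formers), and Bcl2l11, Bmf, Bid and Bad (BH3-only). All 10 passed the filter on low counts, which kept 12303 genes with at least 0.5 CPM, the usual unit of counts relative to the library total, in 3 or more libraries. RNA was taken from 7 cell lines, each derived from an end-stage lymphoma of a C57BL/6 male, and all of these mice, controls included, carried the Eµ-Myc transgene. In this transgene an immunoglobulin enhancer drives Myc in B lineage cells. There were 3 Smchd1 wild-type lines and 4 lines homozygous for loss of Smchd1, which encodes a chromatin factor needed to keep certain genes silent. The labels call the mutation a gene trap, whereas the methods of the study name the allele MD1. Neither treatment nor age is given, and each line is 1 library. The labels do not say which lines came from separate mice, so p-values measure only the spread between these lines.

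Proteins of the BCL2 family decide whether the outer mitochondrial membrane is opened during apoptosis. BAX and BAK1 form pores in that membrane, the survival proteins hold them in check, and the BH3-only proteins either neutralise the survival proteins or activate the pore formers directly. High Myc activity sensitises B cells to apoptosis, and lymphomas of Eµ-Myc mice are known for their dependence on survival proteins, MCL1 among them.

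Total counts were between 3626853 and 7519549 per library. Wild-type replicate 1 was the shallowest and the only library of batch 1, read as single ends, whereas the other 6 formed batch 2 and were read as pairs. In these libraries 3 counts correspond to between 0.399 and 0.827 CPM, a floor that covers counting error only. Smchd1 itself averaged 232 ± 14.9 CPM over the wild-type lines (SD, n = 3) and 26.5 ± 2.85 CPM over the Smchd1 null lines (SD, n = 4). Counts of wild-type replicates 2 and 3 differed by more than sampling noise (chi-square per degree of freedom 3.79), but by far less than any other pair of lines (17.2 to 66.6). Smchd1 null replicate 4 stood apart. The defining B cell markers Cd79a and Cd79b were at 100.4 and 303 CPM there, against 181 to 444 CPM and 262 to 444 CPM in the other 6 lines. The summed level of 10 B cell markers was 583 CPM there, 1503 to 2015 CPM in wild-type lines and 2096 to 2603 CPM in the other Smchd1 null lines. The 8 T cell markers summed to 67.7 CPM there, of which Cd5 gave 55.7 CPM. Their sum was 17.6 to 61.2 CPM in wild-type and 1.29 to 7.997 CPM in the other Smchd1 null lines. Wild-type replicate 1 had the 61.2 CPM, of which Lck gave 60.9 CPM. The defining T cell marker Cd3e was at 0 in every line. The 5 endothelial markers summed to 223 CPM in Smchd1 null replicate 4, of which Pecam1 gave 219 CPM. Their sum was 47.7 to 70.3 CPM in wild-type and 63.3 to 96.0 CPM in the other Smchd1 null lines. The defining endothelial markers were not raised in replicate 4. Cdh5 was at 1.33 CPM there against 1.29 to 3.58 CPM in the other lines, and Kdr was at 0 in every line. Myeloid markers summed to at most 27.8 CPM in any line, and those of NK cells and erythroid cells to at most 2.53 CPM. Stromal markers summed to 10.2 CPM in wild-type replicate 1, where Col1a1 and Col1a2 had 20 and 14 counts. In the other lines Col1a1 had at most 2 counts and Col1a2 had 0. Variance weights estimated for each sample were 0.246 for wild-type replicate 1 and 0.249 for Smchd1 null replicate 4. They were 3.79 and 3.06 for wild-type replicates 2 and 3, and between 0.831 and 1.60 for the remaining lines.

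The sequences just upstream of Bcl2, Bcl2l2 and Bmf are shown because these were the 3 members with the largest SD of log2 CPM over the lines. By the range of log2 CPM, Mcl1 (2.28) would take the place of Bmf (1.99). Bases are those before the annotated start of each gene in RefSeq, build GRCm38.p6, read 5′ to 3′ on the strand of the gene, with each CpG dinucleotide, the target of DNA methylation, in capitals. The windows lie at chr1:106714291-106714540 on the minus strand for Bcl2, chr14:54883175-54883365 on the plus strand for Bcl2l2, and chr2:118549687-118549936 on the minus strand for Bmf.
Bcl2: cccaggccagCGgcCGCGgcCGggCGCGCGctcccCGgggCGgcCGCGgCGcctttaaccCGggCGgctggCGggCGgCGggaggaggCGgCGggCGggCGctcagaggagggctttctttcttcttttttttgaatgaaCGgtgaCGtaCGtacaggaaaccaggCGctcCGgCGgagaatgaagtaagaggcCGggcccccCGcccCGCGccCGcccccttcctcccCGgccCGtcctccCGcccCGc
Bcl2l2: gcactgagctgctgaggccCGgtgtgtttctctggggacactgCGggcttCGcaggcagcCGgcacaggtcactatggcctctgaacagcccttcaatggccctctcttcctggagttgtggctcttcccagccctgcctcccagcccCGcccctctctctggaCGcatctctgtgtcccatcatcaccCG
Bmf: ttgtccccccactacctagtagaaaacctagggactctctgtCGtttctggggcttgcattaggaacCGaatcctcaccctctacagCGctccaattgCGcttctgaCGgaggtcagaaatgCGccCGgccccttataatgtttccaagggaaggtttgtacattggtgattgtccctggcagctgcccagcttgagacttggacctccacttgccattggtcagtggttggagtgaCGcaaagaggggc
The Bcl2 window held 36 CpG in 250 bases, more than 96.7% of 22271 promoter windows of that length (median 9, quartiles 3 and 19). Bcl2l2 had 9 CpG in its window of 250 bases, 7 of them in the 191 bases printed, and Bmf had 8. Both were close to the median window. Over the 16 windows that RefSeq gives for the 10 members, the letters CACGTG, the E-box that Myc can bind, occurred only in the Bax window. That window runs slightly past the annotated start of Bax, and the E-box spans this start. The forkhead motif GTAAACA, searched on both strands, occurred only before Bcl2l11. In all windows of that length the shares were 6.67% and 2.68%. CACGTG reads the same on both strands and contains a CpG.

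The Smchd1 null lines were compared with the wild-type lines to see which of these genes differ when Smchd1 is lost, beginning with the survival genes. Mcl1 (chr3:95656944-95663179) encodes a short-lived survival protein. It was at 1167, 365 and 383 CPM in wild-type replicates 1 to 3 and at 243, 240, 329 and 666 CPM in Smchd1 null replicates 1 to 4. Smchd1 null replicates 1 to 3 were below every wild-type line, but replicate 4 was above wild-type replicates 2 and 3, so the groups overlapped. Its log2 fold change was -0.49 (SE 0.25), with a false discovery rate (FDR) of 0.214 in limma. Wild-type replicate 1, with the highest level, is the single-end library of batch 1, so line and batch cannot be told apart for that value. Without it the log2 fold change was -0.44 (limma FDR 0.155). Mcl1 stayed lower but uncalled with any other line left out, at -1.25 and -1.20 without wild-type replicates 2 and 3 and at -0.29 and -0.23 without Smchd1 null replicates 1 and 2. In bulk RNA such as this, fewer cells with a transcript and less of it per cell cannot be told apart.

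Bcl2 (chr1:106538176-106714290), the founding survival gene of the family, was at 6.34, 21.8 and 20.7 CPM in wild-type and at 19.0, 11.9, 2.01 and 18.9 CPM in Smchd1 null replicates. Its lowest level was in Smchd1 null replicate 3, with 13 counts, and its next lowest was in wild-type replicate 1, with 23 counts. Low lines were thus found in both groups. Bcl2 had a log2 fold change of -1.11 (SE 0.53, limma FDR 0.195), which was -0.47 when Smchd1 null replicate 3 was left out. It was -2.05 and -1.81 without Smchd1 null replicates 1 and 2, and -0.43 and -0.42 without wild-type replicates 2 and 3, and was called in none of these fits.

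Bcl2l2 (chr14:54883366-54890858) encodes BCL-W, another survival protein. It had 1, 77 and 111 counts in wild-type replicates 1 to 3, or 0.276, 12.6 and 16.3 CPM. In Smchd1 null replicates 1 to 4 it had 2, 2, 34 and 248 counts, or 0.296, 0.321, 5.25 and 33.0 CPM. Wild-type replicate 1 and Smchd1 null replicates 1 and 2 were under the floor of 3 counts, and the other lines were well above it. The gene was therefore at or below detection in lines of both genotypes and clearly detected in other lines of both. Mean levels were 9.73 ± 8.38 CPM (SD, n = 3) and 9.71 ± 15.7 CPM (SD, n = 4). The weighted log2 fold change was -3.78 (SE 1.34, limma FDR 0.0977), a value that depends on the weights and on the small number added to low counts. With voom alone it was -1.24 (limma FDR 0.84). GENCODE also annotates a read-through transcript from Bcl2l2 into its neighbour Pabpn1, and gene counts do not separate the transcripts.

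Bcl2l1 (chr2:152758732-152833803) gives rise to the survival protein BCL-XL and, by alternative splicing, to a shorter form that promotes death, and gene counts do not separate the forms. Its level was 15.2, 4.76 and 5.86 CPM in wild-type and 7.55, 4.02, 5.87 and 7.45 CPM in Smchd1 null replicates. Apart from wild-type replicate 1 all lines lay between 4.02 and 7.55 CPM. Its log2 fold change was 0.03 (SE 0.30, limma FDR 0.96), and its sign turned in several other fits.

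**Figure D1:**
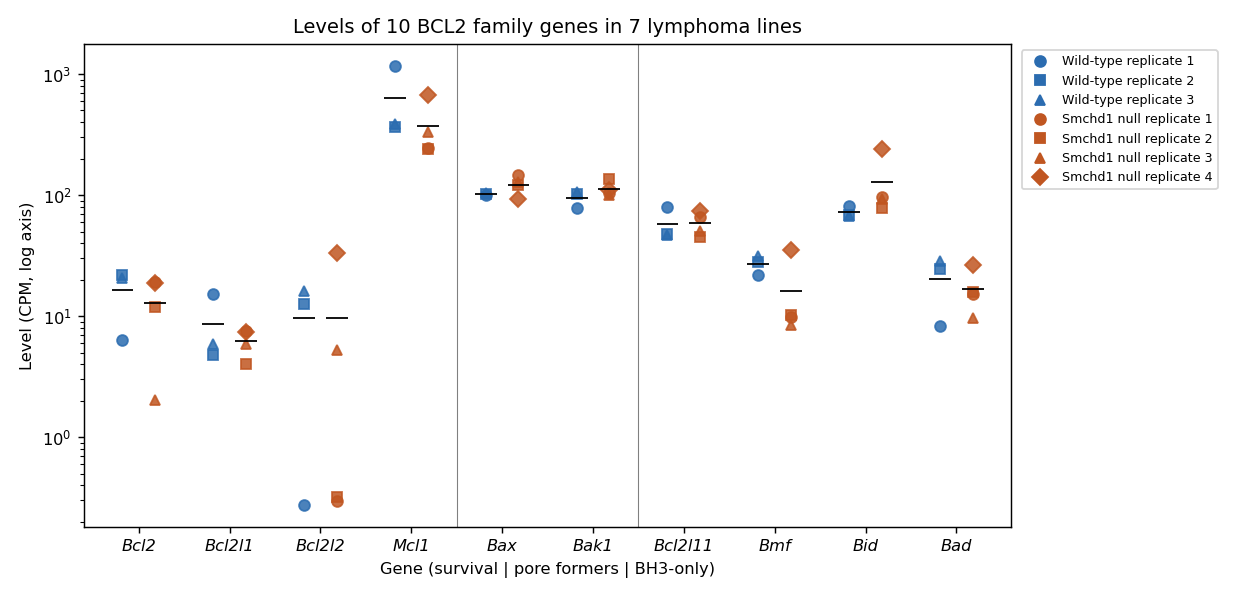
Level of each of the 10 genes in each line (CPM, logarithmic vertical axis), with wild-type lines in blue, Smchd1 null lines in orange, a marker shape for each replicate number and short black lines for group means. Bcl2l2 spans 0.276 to 33.0 CPM and Mcl1 240 to 1167 CPM, whereas Bax and Bak1 stay within 78.3 to 147 CPM.

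The pore formers were the steadiest members. Bax (chr7:45461695-45466903) was at 99.3, 102 and 104 CPM in wild-type lines and at 147, 120, 129 and 92.6 CPM in Smchd1 null lines. Smchd1 null replicates 1 to 3 were above every wild-type line and replicate 4 was below every one. For Bax the log2 fold change was 0.30 (SE 0.11), with a limma FDR of 0.108. Bak1 (chr17:27019812-27028627) was at 78.3, 101 and 106 CPM in wild-type and at 104, 136, 99.6 and 109 CPM in Smchd1 null lines. These values overlapped, and the log2 fold change was 0.17 (SE 0.12, limma FDR 0.374). Bak1 overlaps Ggnbp1 in the annotation, a gene with at most 164 counts in any line.

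Among the BH3-only genes, Bmf (chr2:118528757-118549686) was the member that passed the test. Its product is a sensitiser known to be held at the actin cytoskeleton. Bmf was at 21.8, 28.2 and 31.5 CPM in wild-type replicates 1 to 3 and at 9.92, 10.3, 8.49 and 35.2 CPM in Smchd1 null replicates 1 to 4. Smchd1 null replicates 1 to 3 lay below every wild-type line, and replicate 4 was the highest of all 7. Bmf fell in the weighted fit, with a log2 fold change of -1.46 (SE 0.24, limma FDR 0.0139), with group means of 27.2 ± 4.95 CPM (SD, n = 3) and 16.0 ± 12.9 CPM (SD, n = 4). An exact permutation test over the 35 splits of the 7 lines, two-sided and without weights, gave p = 0.143. The summed B cell marker level and the Pecam1 and Cd5 levels given for Smchd1 null replicate 4 stood apart in the same line as its Bmf level. Their part in it was not tested.

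The call for Bmf depended on how lines were weighted. Voom without sample weights gave a log2 fold change of -1.001 and a limma FDR of 0.463, and the FDR was 0.62 with the quasi-likelihood test of edgeR and 0.643 with DESeq2. The call was also lost without wild-type replicate 2 (limma FDR 0.77), wild-type replicate 3 (0.761), Smchd1 null replicate 1 (0.0579) or Smchd1 null replicate 2 (0.0736), and when wild-type replicates 2 and 3 were summed (0.635). It was kept with Smchd1 null replicate 4 and wild-type replicate 1 both removed (-1.65, limma FDR 0.0258). The fold change was negative in all 19 alternatives and the gene was called in 10 of them. The fits with a batch covariate and without wild-type replicate 1 are nearly the same fit (-1.475 in both) and count as 2 here.

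Bid (chr6:120893119-120917062) encodes the protein that caspase 8 cleaves to link death receptors with mitochondria. Its level was 81.9, 68.9 and 66.7 CPM in wild-type and 97.3, 78.7, 92.1 and 242 CPM in Smchd1 null replicates. Smchd1 null replicate 4 was far above every other line, replicates 1 and 3 were modestly above the wild-type range, and replicate 2 was within it. Its log2 fold change was 0.45 (SE 0.19, limma FDR 0.143), and 0.34 (limma FDR 0.0886) without Smchd1 null replicate 4.

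Bad (chr19:6941861-6951905) encodes a sensitiser that survival kinases inactivate by phosphorylation. It was at 8.27, 24.6 and 28.4 CPM in wild-type and at 15.3, 15.7, 9.73 and 26.3 CPM in Smchd1 null replicates. The lowest level was in wild-type replicate 1 and the groups overlapped over most of their range. For Bad the log2 fold change was -0.81 (SE 0.26, limma FDR 0.0798). Without wild-type replicate 1, which leaves batch 2 alone, Bad (-0.86, limma FDR 0.0387) and Bcl2l2 (-3.94, limma FDR 0.0344) were called in addition to Bmf, so that 3 of 10 members passed where 13.7% of all genes tested did. Without wild-type replicates 2 and 3 in turn, the log2 fold change was -0.24 and -0.08 for Bad and -1.87 and -1.57 for Bcl2l2, with limma FDRs from 0.934 to 0.994. Without Smchd1 null replicates 1 and 2 in turn, that of Bcl2l2 was -2.26 and -2.12 and also missed the threshold. Voom alone gave -0.30 for Bad (limma FDR 0.85). Bad overlaps Gpr137, which had at most 137 counts in any line.

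Bcl2l11 (chr2:128126038-128162547) encodes BIM, a BH3-only protein that binds all survival members and is central to the death of lymphocytes. Its level was 79.7, 47.2 and 46.7 CPM in wild-type and 65.9, 45.0, 50.0 and 73.3 CPM in Smchd1 null replicates. Each group held both higher and lower lines. For Bcl2l11 the log2 fold change was 0.15 (SE 0.16, limma FDR 0.539).

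Over the family, 1 of 10 members was called at an FDR under 0.05, and it was lower in Smchd1 null lines. This share is near that of all genes tested, of which 11.9% were called (5.06% higher and 6.85% lower). Voom alone and edgeR each called 0 of 10 members, and each called 0.0975% of all genes tested, whereas DESeq2 called 0 of 10 members and 3.1% of all genes. At an unadjusted p under 0.05 these tools gave 0, 0 and 1 member, and 11.3%, 11.5% and 12.8% of all genes tested. Of the survival genes and pore formers 0 were called by limma with sample weights. At an unadjusted p under 0.05 in limma were 1 of 4 survival genes, 1 of 2 pore formers and 3 of 4 BH3-only genes. That is 5 of 10 members, where 31.8% of all genes tested were under it. The weighted log2 fold changes were negative for 5 members and positive for 5, with a median of -0.23 against -0.01 over all genes tested. The median was -0.80 for the survival genes, 0.24 for the pore formers and -0.33 for the BH3-only genes. The CPM values of the groups did not separate for any member (0 of 10), whereas they did for 13.2% of all genes tested, and in the exact permutation test 0 of 10 members had p under 0.05. The smallest p this test can give with 3 and 4 lines is 0.0286.

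**Figure D2:**
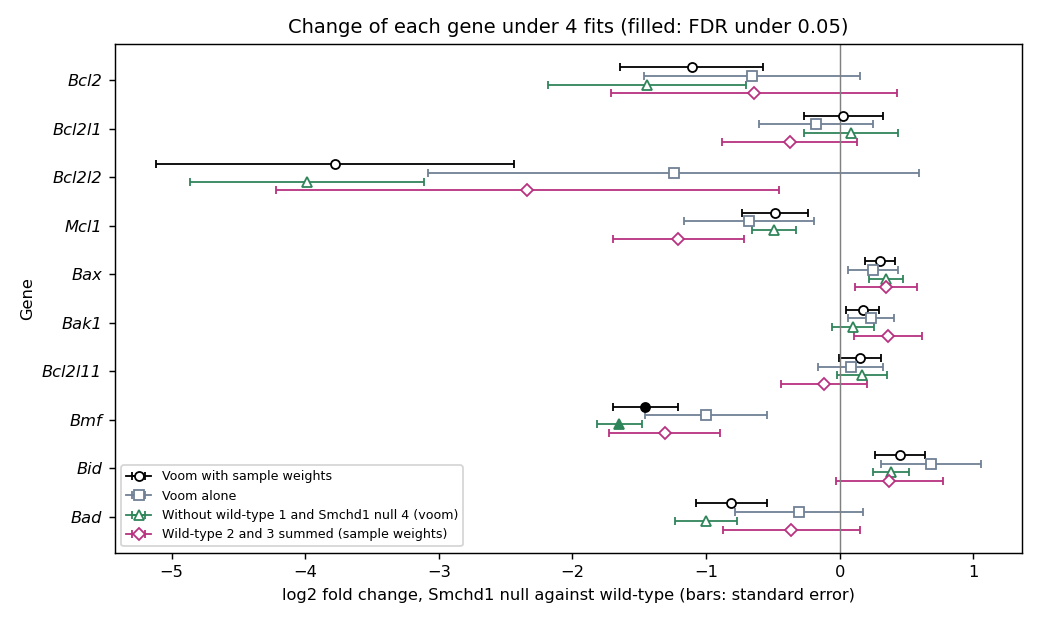
Log2 fold change of each gene in Smchd1 null against wild-type lines (horizontal axis, bars are standard errors) under voom with sample weights, voom alone, voom without wild-type replicate 1 and Smchd1 null replicate 4, and sample weights with wild-type replicates 2 and 3 summed. Filled symbols mark an FDR under 0.05 and are seen only for Bmf, with sample weights (-1.46) and after removal of the pair of lines (-1.65).

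How far each gene varied over the 7 lines, whatever their genotype, set the members apart from each other. The SD of log2 CPM was 2.35 for Bcl2l2, larger than that of 98.6% of genes tested, and 1.17 for Bcl2, larger than that of 90.5%. Bmf (0.85) and Mcl1 (0.82) followed, then Bad (0.68), Bid (0.63) and Bcl2l1 (0.58). Bcl2l11 (0.34) was near the middle of all genes, above 45.9% of them. Bax and Bak1 (0.24 and 0.23) were among the steadier genes, with only 25.02% and 23.7% of genes tested below them.

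Levels of different genes were compared per kilobase of gene length. The median over the lines was 120 CPM per kilobase for Bax and 104 for Mcl1, followed by Bak1 (51.9) and Bid (43.3). Bad (10.8), Bcl2l11 (9.94) and Bmf (4.70) were lower, and the other survival genes Bcl2l1 (2.48), Bcl2 (2.44) and Bcl2l2 (1.52) were lowest. Mcl1 was above Bak1, Bid above Bad and Bcl2l11 above Bmf in all 7 lines. The other neighbours in this order changed places in some lines. Bax was above Mcl1 in 5 of 7, Bak1 above Bid in 5, Bad above Bcl2l11 in 4, Bmf above Bcl2l1 in 4, Bcl2l1 above Bcl2 in 5 and Bcl2 above Bcl2l2 in 3.

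Sums per role followed from these levels. Mcl1 made up 91.8% to 97.9% of the summed survival level in every line, and Bid 49.7% to 76.0% of the summed BH3-only level. The survival sum was 342, 113 and 120 CPM per kilobase in wild-type lines and 75.3, 72.2, 98.6 and 206 in Smchd1 null lines. The BH3-only sum lay between 63.6 and 77.2 CPM per kilobase in 6 lines and was 168 in Smchd1 null replicate 4. That of the pore formers was 153 to 173 in wild-type lines, 198 to 221 in Smchd1 null replicates 1 to 3 and 161 in replicate 4.

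The ratio of the survival to the BH3-only sum was 4.92, 1.64 and 1.69 in wild-type lines and 0.975, 1.14, 1.47 and 1.23 in Smchd1 null lines. Every wild-type value was above every Smchd1 null value, also without wild-type replicate 1. That omission leaves only the pair of wild-type lines whose counts differed least of any pair. Their ratios were 1.64 and 1.69 against 1.47 in the highest Smchd1 null line, so the omission adds little. This ratio is a score over members chosen with results known and is given without a test. It rests largely on Mcl1 and Bid. Its BH3-only sum covers only the members described here. Other BH3-only genes, counted below among the other BCL2 family genes, were not added to it. How often ratios of other gene sets separate the groups was not computed. In Smchd1 null replicate 4 both sums were high. The ratio of Mcl1 to Bcl2l11 per kilobase overlapped between groups, at 21.2, 11.2 and 11.8 in wild-type and 5.32, 7.72, 9.49 and 13.1 in Smchd1 null lines.

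**Figure D3:**
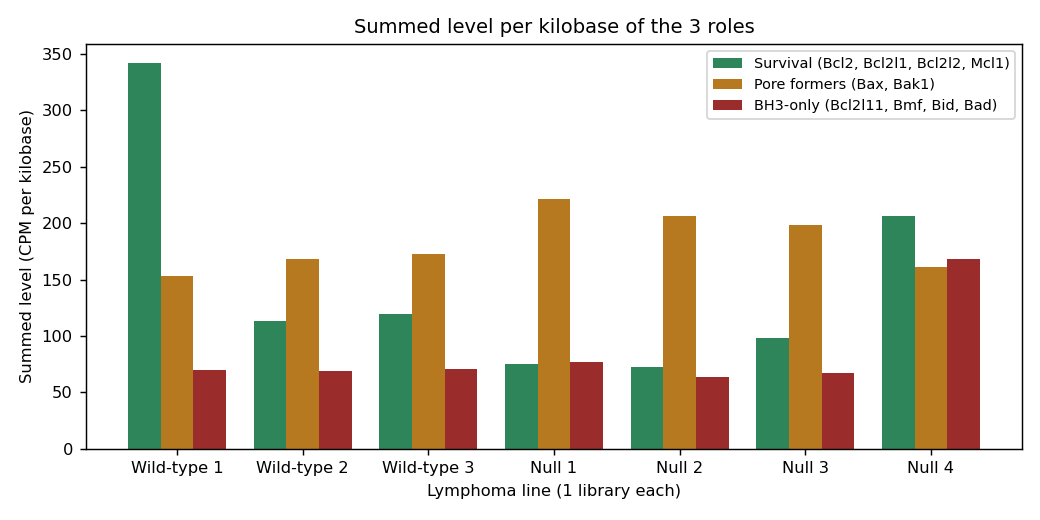
Summed level (CPM per kilobase) of the survival, pore-forming and BH3-only members in each line, 1 library per group of bars. The survival sum is highest in wild-type replicate 1 (342), and the BH3-only sum is 168 in Smchd1 null replicate 4 against 63.6 to 77.2 in the other 6 lines.

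Levels of a gene were set beside those of its chromosomal neighbours, that is, the genes tested within 10 Mb on either side. Each value is the difference in log2 CPM from the median of the 7 lines. For Mcl1 the median of 225 neighbours was -0.54 and -0.45 in Smchd1 null replicates 1 and 2, where Mcl1 itself deviated by -0.59 and -0.60. The neighbours were higher in wild-type replicate 1 as well, by 0.42, though Mcl1 deviated more, by 1.68. In Smchd1 null replicate 4 Mcl1 deviated by 0.87 and its neighbours by 0.01. Around Bad, 215 neighbours had medians of 0.36 and 0.47 in wild-type replicates 2 and 3, where Bad deviated by 0.63 and 0.83. In the other 5 lines those medians were between -0.10 and -0.002, yet Bad itself deviated by -0.89 in wild-type replicate 1, -0.67 in Smchd1 null replicate 3 and 0.72 in Smchd1 null replicate 4. Shifts in the same direction ran over the whole chromosome. The median of 556 chromosome 3 genes was -0.38 in Smchd1 null replicates 1 and 2 and 0.23 in wild-type replicate 1. That of 432 chromosome 19 genes was 0.34 and 0.48 in wild-type replicates 2 and 3. Shifts of genes on the same chromosome thus accompanied the levels of Mcl1 and Bad in some lines, and their part in those levels was not tested. For the remaining 8 members the medians within 10 Mb stayed between -0.16 and 0.14 in every line.

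**Figure D4:**
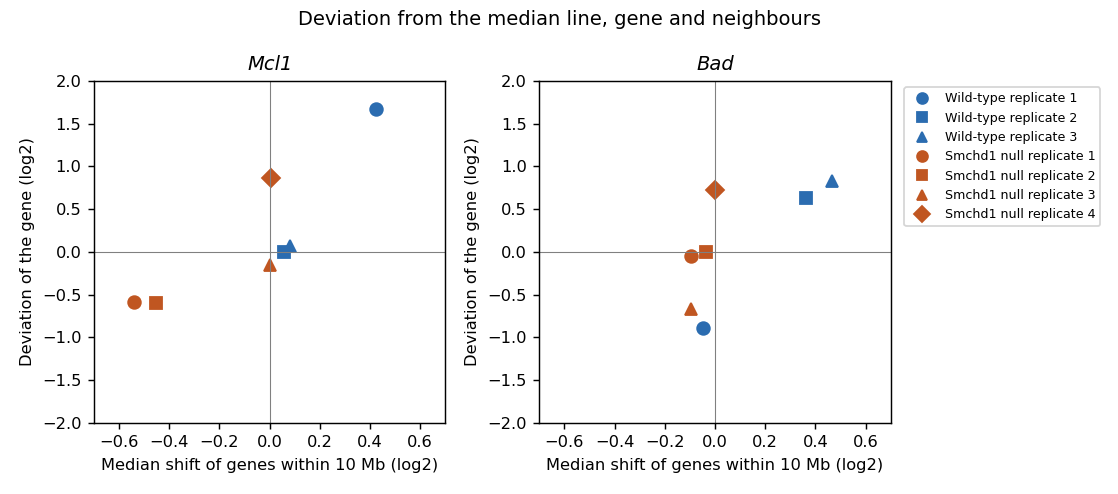
Deviation of Mcl1 (left) and Bad (right) from its median line (vertical axis, log2) against the median deviation of genes within 10 Mb (horizontal axis, log2), 1 symbol per line. Smchd1 null replicates 1 and 2 sit at -0.54 and -0.45 on the horizontal axis for Mcl1, and wild-type replicates 2 and 3 at 0.36 and 0.47 for Bad.

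For the pair of members that varied most, the genes with the most similar pattern were sought by the root mean square difference of centred log2 CPM over the 7 lines. For Bcl2 these were Spred2 (0.25), Serpinb9 (0.38) and Ahnak (0.40). Spred2 was at 7.17, 17.2 and 13.5 CPM in wild-type and 14.8, 12.2, 2.01 and 14.8 CPM in Smchd1 null lines, with its low values in the same lines as Bcl2. For Bcl2l2 the nearest genes, Cd244a (0.92), Arhgef17 (0.97) and Plk2 (0.97), were less close. Cd244a was at 0.551, 10.2 and 11.6 CPM in wild-type and 1.63, 2.57, 3.09 and 30.3 CPM in Smchd1 null lines.

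The rest of the apoptosis machinery was examined in 4 lists. Of 65 genes 55 were tested and 5 were called, all lower in Smchd1 null lines, which is 9.09% against 11.9% of all genes tested. Voom alone, edgeR and DESeq2 called 0 of the 55. They gave 2, 4 and 5 of these genes at an unadjusted p under 0.05, and 11.3%, 11.5% and 12.8% of all genes tested. The weighted fit gave 18 of the 55 and 31.8% of all genes tested under that p. Bcl2l10, Hrk, Fas and Fasl had 0 counts in every line.

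Among other BCL2 family genes 2 of 9 tested were called, and the median log2 fold change was -0.43. Both encode mitochondrial proteins that also act in mitophagy. Bnip3 was at 13.0, 248 and 233 CPM in wild-type and 61.0, 39.4, 27.2 and 24.6 CPM in Smchd1 null lines. Bnip3l was at 55.4, 222 and 205 CPM in wild-type and 89.6, 80.8, 86.5 and 56.8 CPM in Smchd1 null lines. For both genes wild-type replicates 2 and 3 were above all other lines and wild-type replicate 1 was below all Smchd1 null lines. The log2 fold changes were -2.46 (SE 0.55, limma FDR 0.0307) and -1.32 (SE 0.25, limma FDR 0.0189). Without wild-type replicate 2 they were -0.67 and -0.38, with limma FDRs of 0.97 and 0.967, and without wild-type replicate 3 they were -0.67 and -0.43 (limma FDRs 0.944 and 0.926). Both calls were also lost without Smchd1 null replicate 1 (limma FDRs 0.0704 and 0.0599) or replicate 2 (0.0941 and 0.0766). Of 19 alternatives, Bnip3 was called in 7 and Bnip3l in 8.

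Of 21 apoptosome and caspase genes 2 were called, both lower. Casp6, which encodes an executioner caspase, was at 6.89, 10.7 and 12.2 CPM in wild-type and 5.48, 5.46, 7.26 and 10.8 CPM in Smchd1 null lines. These groups overlapped, with a log2 fold change of -0.87 (SE 0.22, limma FDR 0.0427).

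Among 18 regulators of BCL2 family proteins or genes 1 was called. Usp9x, whose product removes ubiquitin from MCL1 and so stabilises it, was at 163, 200.4 and 169 CPM in wild-type and 134, 133, 124 and 146 CPM in Smchd1 null lines. All Smchd1 null lines were below all wild-type lines. The groups separated in the same sense, in either direction, for 13.2% of all genes tested. In these lists they also did for 2 genes that were not called. Bag1 was lower (117 to 146 CPM against 148 to 215 CPM) and Fadd higher (15.2 to 17.2 CPM against 10.8 to 13.5 CPM) in Smchd1 null lines. Usp9x had a log2 fold change of -0.49 (SE 0.11, limma FDR 0.0306), and the exact permutation test gave p = 0.0286, the smallest it can give, before any adjustment. Casp6 and Usp9x lost the call in limma without wild-type replicate 2 (FDR 0.924 and 0.881) or replicate 3 (FDR 0.89 and 0.78). They also lost it without Smchd1 null replicate 1 (limma FDR 0.159 and 0.0832), replicate 2 (0.196 and 0.102) or replicate 3 (0.0636 and 0.0628). Of 19 alternatives, Casp6 was called in 5 and Usp9x in 6. Pim2, a survival kinase named after its values were seen, was not called but was at 503 CPM in Smchd1 null replicate 4 and 21.3 to 30.4 CPM elsewhere. Of 7 death receptor genes tested, limma, edgeR and DESeq2 called 0, and 2 had an unadjusted p under 0.05 in limma. The median log2 fold changes of these last 3 lists were 0.04, 0.03 and 0.07.

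**Figure D5:**
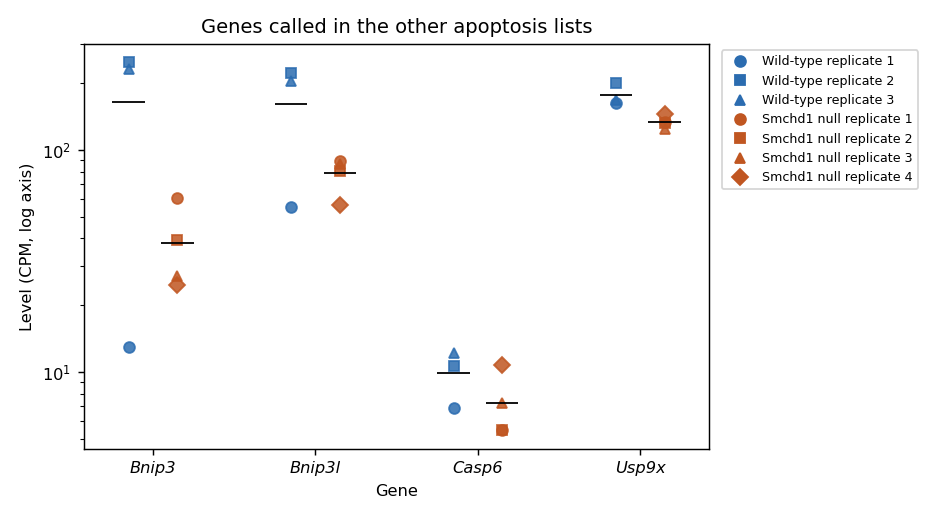
Level (CPM, logarithmic axis) in each line of 4 called genes from the other apoptosis lists, with wild-type lines in blue, Smchd1 null lines in orange and group means as black lines. Usp9x separates the groups, whereas wild-type replicate 1 is at 13.0 CPM for Bnip3 against 248 and 233 CPM in wild-type replicates 2 and 3.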

How the data were processed

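Total RNA of 7 lymphoma lines was made into TruSeq libraries and sequenced. According to the labels and to the study's methods, the authors aligned reads to the mouse build mm10 with Subread and summarised them per gene with featureCounts, and deposited raw counts per Entrez gene with the gene length. Strand and multi-mapping settings are not given in the sources used here, so overlapping genes may share reads. Submitters' processing notes also name CASAVA (version 1.8.2), edgeR (version 3.8.2) and limma (version 3.22.0).

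CPM was computed from the deposited counts and each library's total count. Symbols came from RefSeq (GRCm38.p6, the same build as mm10) by gene identifier, for 25275 of 27179 genes holding 98.2% of counts. Genes that reached 0.5 CPM in at least 3 libraries were normalised by TMM and fitted with voomWithQualityWeights in limma (version 3.58.1, R version 4.3.3), all 7 libraries in 1 fit without covariates. Genes with a Benjamini-Hochberg FDR under 0.05 over all genes tested are called. Exact permutation tests used mean log2(CPM + 0.5). Alternatives included edgeR (version 4.0.16) and DESeq2 (version 1.42.0), other weights, filters and normalisation, a batch covariate and omitted lines.

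The text names Smchd1, all members, genes called in each of 4 further lists (at most 6 a list) with those at 0 throughout, and for the 2 members that varied most the 3 genes with the nearest pattern. Other genes named are markers, genes that overlap or adjoin a member, and Pim2, Bag1 and Fadd, chosen after their values were seen. Results of 2 genes of the lists are not reported here, though both stayed in every fit, count and sum. The members and lists were chosen with earlier results of these data known, and p-values were adjusted over all genes, never over a list alone. RefSeq gave promoter windows for all 10 members.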

Additional observations from a re-analysis of the deposited data

Results flagged for a closer look

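Of 19 values per line screened for a line far from the rest of its group, 4 were far enough. Chance would give about 1 if the values were independent and normally distributed, but all come from the same lines. In each of the 4 the line was Smchd1 null replicate 4, whose gap to the nearest other Smchd1 null line took up most of the range of the group, beyond Dixon's 95% critical value. They were Bcl2l2 (33.0 CPM), Bmf (35.2 CPM), Bid (242 CPM) and the summed BH3-only level (168 CPM per kilobase), the last of which holds Bmf and Bid and is not independent of them. The screen used CPM and was not repeated on log2 CPM. On that scale Bcl2l2 was at -0.33, -0.28, 2.52 and 5.07 in Smchd1 null replicates 1 to 4, and the gap no longer took up most of the range. Bid was at 6.61, 6.31, 6.53 and 7.92 in these lines, and its gap fell short of the critical value. So did that of the BH3-only sum on a log2 scale. Only Bmf, at 3.38, 3.43, 3.17 and 5.16, would stay beyond it. Other genes tested were not screened, so no share over all genes stands beside these 4. The wild-type group, with 3 lines, was not screened.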

How the results depend on the processing

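Smchd1 was called in all 19 alternatives. These are not all separate, since a batch covariate takes up wild-type replicate 1, the only library of batch 1. That fit nearly repeats the one without this line, with Bad at -0.86 and Bcl2l2 at -3.94 in both. Of 12303 genes tested, 1672 were called with the covariate and 1683 without the line. Members called (1 with sample weights) numbered 0 with voom alone, edgeR, DESeq2 or wild-type replicates 2 and 3 summed, 3 with batch as a covariate or an FDR under 0.1, and 0 to 3 when 1 line was left out. At an unadjusted p under 0.05 voom alone and edgeR gave 0 members, DESeq2 gave 1 and sample weights gave 5, against 11.3%, 11.5%, 12.8% and 31.8% of all genes tested. Called genes of the 4 further lists (5) numbered 0 with voom alone, block weights, edgeR, DESeq2, the replicate block or the summed lines, 2 after sample removal, 3 without a filter, 8 with at least 10 counts in every sample, 13 at an FDR under 0.1, and 0 to 6 when 1 line was left out. Over all genes tested, 1466 calls became 12 with voom alone or edgeR, 493 with block weights, 521 after sample removal, 382 with DESeq2, 222 with the replicate block, 1 with the summed lines (with or without sample weights), 2797 at an FDR under 0.1, and 1 to 1683 when 1 line was left out. The fits without wild-type replicate 2 and without wild-type replicate 3 gave 1 call each. List genes tested numbered 55, but 61 without a filter and 50 with at least 10 counts in every sample. In these 2 settings 1460 of 16882 and 1533 of 9522 genes tested were called. The 8 of 50 list genes, and the 13 of 55 at an FDR under 0.1 (2797 of 12303 genes), were thus near the share of all genes.

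The sign of the log2 fold change turned for 3 members that were never called. Bcl2l1 (0.03) was -0.18 with voom alone, -0.0148 with at least 10 counts, -0.43 with edgeR, -0.42 with DESeq2, -0.28 with the replicate block, -0.23 (voom alone) and -0.37 (sample weights) with the lines summed, and -0.62 to 0.29 with 1 line left out. Bcl2l11 (0.15) was -0.0527 with the replicate block, -0.0029 (voom alone) and -0.12 (sample weights) with the lines summed, and -0.15 to 0.28 with 1 line left out. Bak1 was -0.0016 to 0.40 with 1 line left out. Same-numbered lines of the groups are not known to be paired. Their deviations from the group means correlated at -0.16, 0.22 and -0.21, and those of differently numbered lines at -0.23 to 0.21. Deviations of lines in 1 group are tied to each other by their mean, so these correlations cannot decide on pairing. With the replicate block Bmf stayed called, and 0 genes of the other lists did. The causes of these changes were not tested. With at least 10 counts in every sample Bcl2l2 could not be fitted. Depth limits Bcl2l2 most, with 3 lines under 3 counts.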
